A study of Mus musculus with 4 samples.

Results

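Binding of a Flag-tagged Isl1-Lhx3 fusion was examined at 8 neural cell adhesion genes: Ncam1, Ncam2, Chl1, Nrcam, Nfasc, Cntn1, Cntn2 and Alcam. A peak was counted for one of these genes when the maximum of the peak had a start of that gene as its nearest protein-coding transcription start. This rule selected 3 peaks of 2455 in the deposited list, 1 each at Nfasc, Ncam1 and Alcam. The other 5 genes, Ncam2, Chl1, Nrcam, Cntn1 and Cntn2, had no assigned peak. The data came from Flag ChIP-seq of mouse iMN-ESCs, embryonic stem cells made from the A172LoxP line, with the fusion under a doxycycline-inducible (Dox-inducible) promoter. There were 2 libraries with Dox at 2 µg/mL and 2 libraries without Dox, each numbered 1 and 2. Cells of both groups carried the transgene, grew as embryoid bodies in 0.5 µM retinoic acid alone for 2 days and with or without Dox for 4 days, and received LIF at 1000 units/mL for the last 16 hours. The fusion stands in for a dimer of separate Isl1 and Lhx3 proteins, and the labels do not say whether the line is 1 clone or whether the sets were separate cultures. The authors deposited 1 list with a single ChIP score, background score and tag count per peak, so no value could be given per library, the total depth is unknown, and with Dox could not be compared with without Dox. It holds no expression values, so the labelled cell type could not be checked against marker genes.

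The LIM-homeodomain factors Isl1 and Lhx3 together specify spinal motor neurons, and homeodomain proteins of this kind bind short sites built around the core ATTA. The 8 genes encode immunoglobulin superfamily proteins of the neuronal surface. Ncam1 and Ncam2 encode neural cell adhesion molecules, of which Ncam1 is the main carrier of polysialic acid. Nfasc (neurofascin), Nrcam and Chl1 belong to the L1 family, whose cytoplasmic tails bind ankyrins. Cntn1 and Cntn2 (TAG-1) encode contactins held in the membrane by a lipid anchor, and Alcam (CD166) encodes a homophilic adhesion molecule found on motor axons in the chick. These proteins act in axon outgrowth, in bundling of axons and in assembly of the axon initial segment and the nodes of myelinated axons.

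The sequences around the 3 peak maxima are shown because the Flag ChIP-seq list places a peak on this DNA and the sequence played no part in choosing the peaks. Each is 300 bases of mm9 centred on the maximum, 5′ to 3′ on the plus strand, with each ATTA core on either strand (ATTA or TAAT) in capitals. The Nfasc sequence is chr1:134556945-134557244, the Ncam1 sequence chr9:49744167-49744466 and the Alcam sequence chr16:53659504-53659803. The fourth, chr1:134773201-134773500, lies just upstream of Lrrn2, the neighbour of Nfasc, and is shown as a nearby peak that does hold the longer site TAATTA.
Nfasc: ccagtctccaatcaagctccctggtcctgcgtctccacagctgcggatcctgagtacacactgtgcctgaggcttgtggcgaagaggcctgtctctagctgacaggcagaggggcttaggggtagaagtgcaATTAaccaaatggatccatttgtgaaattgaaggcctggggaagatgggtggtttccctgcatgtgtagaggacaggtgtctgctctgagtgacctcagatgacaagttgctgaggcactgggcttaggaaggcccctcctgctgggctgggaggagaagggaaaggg
Ncam1: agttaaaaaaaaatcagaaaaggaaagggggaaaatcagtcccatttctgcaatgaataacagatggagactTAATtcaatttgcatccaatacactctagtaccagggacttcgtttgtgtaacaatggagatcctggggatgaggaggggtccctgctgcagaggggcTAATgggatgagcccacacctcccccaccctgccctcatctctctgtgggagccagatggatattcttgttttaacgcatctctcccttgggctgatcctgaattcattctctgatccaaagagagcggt
Alcam: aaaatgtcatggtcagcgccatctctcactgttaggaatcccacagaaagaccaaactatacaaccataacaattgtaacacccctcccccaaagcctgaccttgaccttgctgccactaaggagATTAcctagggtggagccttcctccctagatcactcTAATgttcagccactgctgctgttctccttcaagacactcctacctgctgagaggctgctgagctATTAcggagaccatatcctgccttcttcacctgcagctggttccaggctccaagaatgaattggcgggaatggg
Lrrn2: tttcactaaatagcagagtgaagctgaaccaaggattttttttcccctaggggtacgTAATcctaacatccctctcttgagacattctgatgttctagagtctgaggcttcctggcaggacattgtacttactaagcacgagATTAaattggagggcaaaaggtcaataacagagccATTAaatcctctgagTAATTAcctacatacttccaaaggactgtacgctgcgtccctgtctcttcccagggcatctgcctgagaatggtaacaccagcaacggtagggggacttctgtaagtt

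The peaks at Nfasc and Ncam1 were among the strongest of the list, and the peak at Alcam was among the weakest. Nfasc had a ChIP score of 169.96, which is rank 15 of 2454 nuclear peaks, and Ncam1 had 145.87, which is rank 32. Alcam had a ChIP score of 30.78 and rank 2315, close to the lowest score of the list, 29.98. Over all nuclear peaks the median score was 40.95 and the quartiles were 34.26 and 54.07. These scores are the authors' own, with no stated scale, and they describe the 3 peaks without a test, since the genes were chosen by the peaks this list holds.

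**Figure D1:**
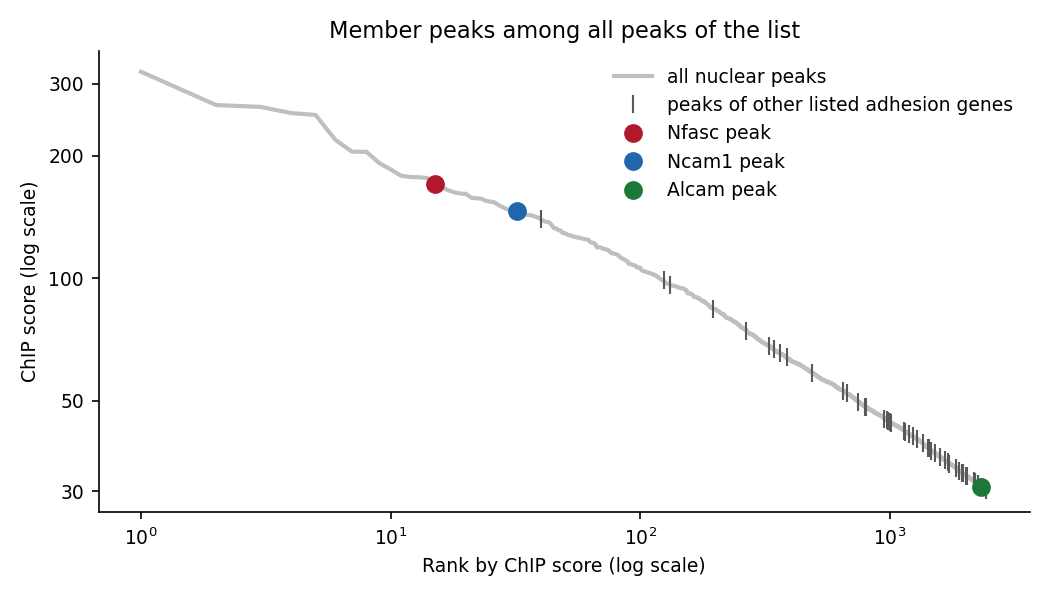
ChIP score of each nuclear peak against its rank by score, both on log scales. The Nfasc (169.96, rank 15) and Ncam1 (145.87, rank 32) peaks lie at the strong end of the curve, the Alcam peak (30.78, rank 2315) at its weak end, and the vertical marks are the 50 peaks of other listed adhesion genes, of which the strongest scored 139.45.

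Tag counts were higher at Nfasc and Ncam1 than at Alcam. The Nfasc region held 124 tags (103.1 to 147.8, 95% Poisson interval), the Ncam1 region 115 tags (94.9 to 138) and the Alcam region 19 tags (11.4 to 29.7), against a median of 31 over all peaks. The intervals of Nfasc and Ncam1 overlap, so their tag counts could not be ordered at this depth, and that of Alcam lies below both. This is a description and not a test, because the genes were chosen with these peaks known. Tags were also counted per called region, and the regions differ in length. These intervals cover counting error only. The share of all peaks with more tags was 2.77% for Nfasc, 3.34% for Ncam1 and 83.05% for Alcam.

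The background score was under 10% of the ChIP score at each of the 3 peaks, as it was at 94.6% of all nuclear peaks. It was 0 at Nfasc and 0.01 at Ncam1, against a median of 0.34 over all peaks. At Alcam it was 0.69, which is 2.242% of the ChIP score there. The file header does not state the source of the background score, so it is not read as the level without Dox. Each of the 3 regions held a single maximum, as did 94.1% of all regions, and the called region was 536 bp long at Nfasc, 781 bp at Ncam1 and 291 bp at Alcam, against a median of 480 bp.

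Nfasc encodes neurofascin, which anchors the axon initial segment and the nodes of Ranvier, and it was the only one of the 8 genes with a peak inside its body. The peak (mm9 chromosome 1, 134556846 to 134557345) lay in an intron, which is intron 2 in all 3 annotated transcripts and is 22.62 kb long. The maximum was 46.81 kb downstream of the nearer Nfasc start and 81.28 kb downstream of the other. Cntn2, which encodes the contactin TAG-1 of early growing axons, lies on the same strand, and its nearest start lay 117.58 kb from this maximum, which was upstream of Cntn2. The Nfasc peak was therefore also the peak nearest to Cntn2, whose own count was 0. In the score order it stood between a peak in an intron of Dmxl2 (176.11) and one at the start of Mcf2 (167.55).

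The interval around Nfasc and Cntn2 held more peaks than that of any other gene of the 8. There were 9 peaks within 1 Mb of an Nfasc start, and the same number within 1 Mb of a Cntn2 start. The nearest of those not assigned to Nfasc were 2 peaks upstream of Lrrn2, which encodes a leucine-rich repeat protein of neurons, at scores of 40.95 and 36.4. They lay 3.5 kb and 29.27 kb upstream of Lrrn2, and 134.98 kb and 109.21 kb from an Nfasc start on its upstream side. The strongest of the others were near Mdm4 (89.13), Sox13 (81.63) and Nucks1 (68.79), neighbours named after their values were seen. The Nfasc score was above each of these.

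Ncam1 encodes the neural cell adhesion molecule, and its peak lay outside the gene. The peak (mm9 chromosome 9, 49744068 to 49744567) was intergenic and lay 137.29 kb upstream of the most upstream Ncam1 start. The next protein-coding start, of the predicted gene Gm17616, was 401.61 kb away, and a U6 small nuclear RNA gene was nearer than Ncam1, at 110.24 kb. With noncoding genes allowed, this peak would be assigned to that U6 gene and Ncam1 would have none. Of its 5 annotated starts, the others lay between 137.48 kb and 393.07 kb from the maximum. No peak lay within 100 kb of an Ncam1 start, and within 500 kb there was 1 besides this one, of score 35.6 at Tmprss5.

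Alcam had the most distant peak. The peak (mm9 chromosome 16, 53659405 to 53659904) was intergenic and lay 1205.47 kb upstream of the nearest Alcam start, while the next protein-coding gene, Cblb, had its start 1507.02 kb away. A start of the microRNA gene AC125028.1 was nearer than both, at 225.83 kb. Peaks this far from a protein-coding start were few, since 26 of 2454 (1.06%) lay beyond 1 Mb and 453 (18.5%) beyond 100 kb. The nearest-start rule gave this peak to Alcam across more than a megabase, and the list holds nothing that ties the 2 together.

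The 5 genes without an assigned peak differed in how far they lay from any peak. Nrcam encodes the L1-family partner of neurofascin at nodes, and its nearest peak lay 1037.23 kb downstream of a start, at a score of 33.19, assigned to Stxbp6. Cntn1, which encodes a contactin of the paranodal junction, had its nearest peak 382.05 kb downstream, in an intron of Pdzrn4, with a score of 35.6. Chl1, the close homologue of L1, had none within 1 Mb. Its nearest peak lay 2503.09 kb downstream in Cntn4, another contactin gene, with a score of 40.95. Ncam2, the paralogue of Ncam1, also had none within 1 Mb, and its nearest peak was 1559.57 kb upstream, at a score of 46.84, assigned to Tmprss15. Stxbp6, Cntn4 and Tmprss15 were named after their values were seen.

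**Figure D2:**
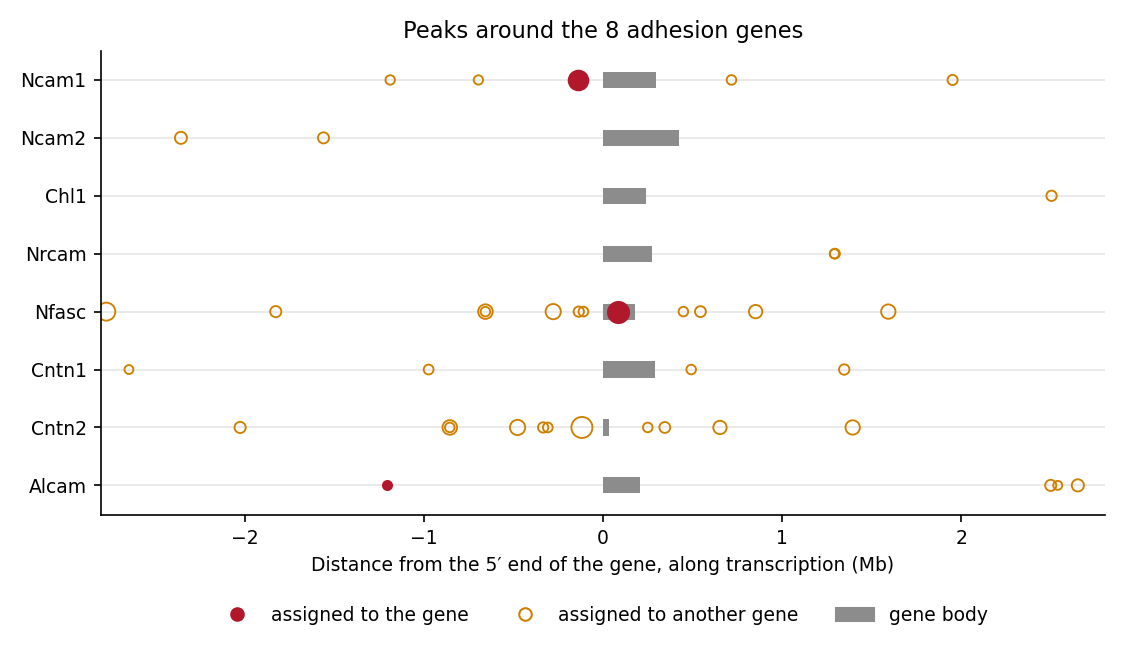
Peaks within 2.8 Mb of the 5′ end of each of the 8 genes, with distance along the direction of transcription in Mb, the gene body as a bar and the area of each circle in proportion to the ChIP score. Filled circles are peaks assigned to the gene (Nfasc in its body, Ncam1 137.29 kb and Alcam 1205.47 kb upstream) and open circles are peaks assigned to other genes, of which Nfasc and Cntn2 had the most within 1 Mb.

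In all, 3 of the 8 genes had a peak (37.5%, 8.52 to 75.5, exact binomial interval), where 8.18% of the 22333 protein-coding genes had at least 1. By the gene body that holds the maximum it was 1 of 8 (Nfasc), where 3.91% of genes had a peak, and within 100 kb of a start also 1 of 8, where 6.92% did. Within 10 kb of a start it was 0 of 8, where 3.09% did, and with noncoding genes allowed it was 1 of 8, where 5.21% of all annotated genes had a peak. Nothing is read from these counts, because the genes were selected on the presence, score and position of peaks in this list. The territory of a gene, the known bases nearest to its starts, also bears on it. Territories of the 8 genes ran from 0.101 Mb for Cntn2 to 2.938 Mb for Ncam2, against a median of 0.045 Mb over protein-coding genes. Among the tenth of protein-coding genes with the largest territories, 26.6% had a peak. Together the 8 territories covered 7.21 Mb and held 0.416 peaks per Mb, where the whole genome held 0.959, given as a description with nothing read from it. Most of the 7.21 Mb belonged to Ncam2 (2.938 Mb) and Alcam (1.658 Mb), while Nfasc and Ncam1, where the strong peaks lay, had 0.186 Mb and 0.533 Mb.

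None of the 3 peaks held TAATTA, the longer homeodomain site, in the 200 bp around the maximum. That site was present in 34.3% of the same windows over all nuclear peaks and in 6.50% of 200 bp windows 1 kb to either side. With 3 windows, a count of 0 allows a share of up to 70.8% (exact binomial interval), so no difference from the other peaks was detectable. The same count was 0 in 100 bp and in 500 bp windows, where 26.4% and 41.6% of all peaks had it. The 2 Lrrn2 peaks next to Nfasc each held 1 TAATTA, although their scores were far lower.

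The short core ATTA, which TAATTA contains, was present in all 3 windows, as in 94.2% of all peaks and 66.7% of flanks. Nfasc had 1 match, 18 to 15 bp left of the maximum on the plus strand. Ncam1 had 2, of which the nearer began 20 bp right of the maximum. Alcam had 3, of which 1 began 25 bp to the left and 1 began 11 bp to the right. The median over all peaks was 3 matches, and 76.73% of peaks had more than Nfasc. The strongest of the 3 peaks thus had the fewest cores and the weakest had the most, an order over 3 peaks that was not tested. None of the 5 paired arrangements searched was present in the 3 windows. These were TAAT followed by ATTA with 2 bases between, ATTA followed by TAAT with 2 or 3 bases between, and TAAT repeated with 0 or 5 bases between, and each was in 3.10% to 6.81% of all peaks.

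Sites of other factor families were also described in these windows, with both strands searched. Ncam1 held the POU octamer ATGCAAAT, on the minus strand 71 to 64 bp left of the maximum and 3 bases past a TAAT core. This octamer was in 4.24% of all peaks and 1.57% of flanks. The SOX site ATTGTT was present once each in Ncam1 and Alcam, and in 14.3% of all peaks against 10.7% of flanks. Nfasc had no match to either. It held 5 matches to the loose E-box CANNTG, a site class bound by basic helix-loop-helix factors, against 2 in Ncam1 and 1 in Alcam. At least 1 such match was in 67.1% of all peaks and 66.1% of flanks, and 5 or more were in 0.65% of peaks and 0.79% of flanks, so such a number was not more frequent at peaks than beside them. The tighter form CAGCTG, which CANNTG contains, was in 0 of the 3 windows, 13.9% of all peaks and 8.92% of flanks. The relaxed STAT site TTCNNNGAA and the strict form TTCCNGGAA, of interest because the series title names STAT3, were absent from the 3 windows. They were present in 5.01% and 0.733% of all peaks and in 5.85% and 0.856% of flanks. A match is a string of letters and not a bound site.

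**Figure D3:**
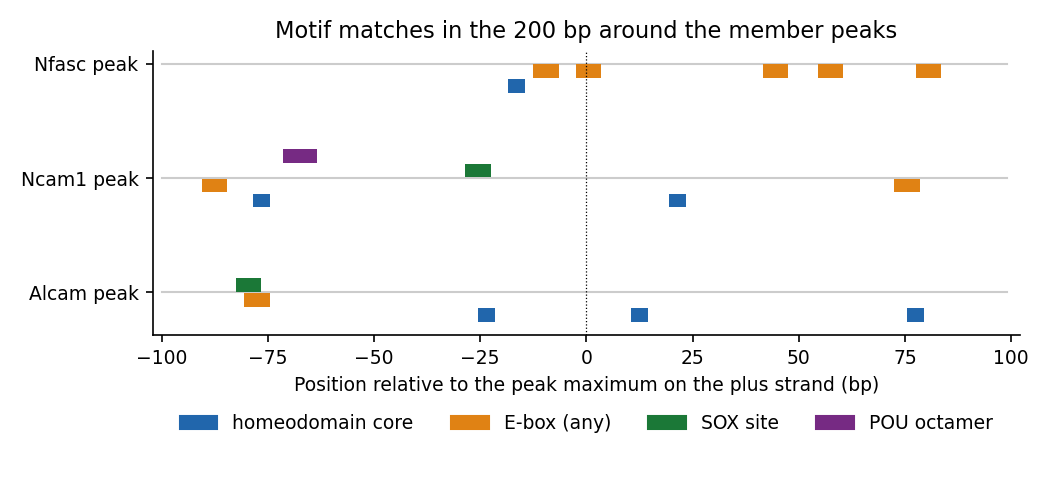
Positions of motif matches in the 200 bp around the 3 peak maxima, in bp from the maximum on the plus strand, with 1 row of bars per motif class. The Nfasc window has 1 homeodomain core and 5 E-box matches, the Ncam1 window 2 cores with a POU octamer and a SOX site, and the Alcam window 3 cores with a SOX site.

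A pair of features was looked for only after the sequences had been seen. The hexamer CTAATG, which contains the core TAAT, was present in Ncam1 (19 to 24 bp right of the maximum) and in Alcam (10 to 15 bp right), and not in Nfasc. It was in 19.3% of all peaks and 6.85% of flanks. In Nfasc a stretch of 16 bases equal to its own reverse complement, caaatggatccatttg, spanned the maximum from 12 bp left to 3 bp right and held 2 of the 5 E-box matches. A stretch at least that long was present in 19 peaks (0.774%) and in 1.32% of flanks, so it was not more frequent at peaks than beside them.

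Other adhesion genes were counted from 11 families, 93 genes in all, 85 of them outside the 8. Of those 85, 35 (41.2%, 30.6 to 52.4) had a peak, where 8.18% of all protein-coding genes and 26.6% of the tenth with the largest territories had one. Nothing is read from this share, because the families were listed with earlier results of these data known. They held 50 peaks in a combined territory of 89.7 Mb, where the genome's mean rate gives 86. Their median score was 39.88 (lowest 30.24, highest 139.45). Among the strongest 100 of all 2454 nuclear peaks was 1 of the 50, and nothing is read from this count. The Nfasc and Ncam1 peaks also stood there, but the 8 genes were selected on these scores. TAATTA was in 20 of the 50 windows (40%, 26.4 to 54.8), where 34.3% of all peaks had it. Introns held 25 of the 50 peaks, where they held 45.4% of all nuclear peaks, and intergenic sequence held 25, where it held 50.8%. Beyond 100 kb of a start lay 24 of the 50, where 18.5% of all peaks did.

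The strongest of them was at Cdh1, the gene of E-cadherin, an adhesion molecule of epithelia and of pluripotent cells, with a score of 139.45 in an intron 17.6 kb from a start. Cadherins had a peak in 8 of 14 genes, and Cdh9 (68.25) and Cdh6 (49.78) followed Cdh1. Delta protocadherins had 6 of 9, led by Pcdh9 (74.41), Pcdh10 (66.91) and Pcdh1 (58.62). The Pcdh9 peak lay in an intron of Pcdh9, 802.91 kb from a start. The Pcdh10 peak was intergenic and lay 1080.03 kb from a start, and only the nearest-start rule ties it to Pcdh10. Teneurins and latrophilins, which bind each other across synapses, had 4 of 7, with Lphn3 (98.76), Odz4 (52.99) and Odz3 (42.29) in front. Nectins and synaptic adhesion molecules also had 4 of 7, with Pvrl2 (44.97), Cadm1 (39.34) and Pvrl3 (38.27).

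In the families nearest to the 8 genes, the other scores were all below those of Nfasc and Ncam1, as they were in the remaining families. Contactins had 2 of 6, Cntn5 (41.49) and Cntn4 (40.95), while Cntn3 and Cntn6 had none. Contactin-associated proteins, some of which pair with contactins, had 3 of 7, with Cntnap5a (40.42), Cntnap5b (35.86) and Cntnap2 (31.31). Those Cntnap5a and Cntnap5b peaks lay 1720.45 kb and 2146.31 kb from a start, farther than the Alcam peak. As there, the list holds nothing that ties peak and gene together. A start of the long noncoding RNA gene 9330185C12Rik was nearer to the Cntnap5a peak, at 0.17 kb. One of the small nucleolar RNA gene SNORA17 was nearer to the Cntnap5b peak, at 187.51 kb. Both noncoding genes were named after their values were seen. L1cam, the founding L1 gene, and Mcam had none, so the NCAM and L1 families had 3 of 8, all 3 among the genes described above. Of 14 partners, anchors and modifiers, 3 had a peak: Tnr (65.57), an extracellular matrix protein that binds contactins, Fgfr1 (63.97), a receptor engaged by Ncam1, and Fyn (48.44), a kinase downstream of Ncam1. The polysialyltransferase genes St8sia2 and St8sia4, whose products modify Ncam1, and the ankyrin genes Ank2 and Ank3 had none.

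Elsewhere, Dscaml1 (96.35) and Sdk2 (32.65) had a peak among 4 Dscam and sidekick genes, and Lsamp (45.23) among 4 IgLON genes. The Lsamp peak lay 892.99 kb from a start. No family was tested against another, and territories differed between them. Cadherins held 11 peaks where the mean rate over their territory gives 19.9, and delta protocadherins held 8 where it gives 16.4.

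**Figure D4:**
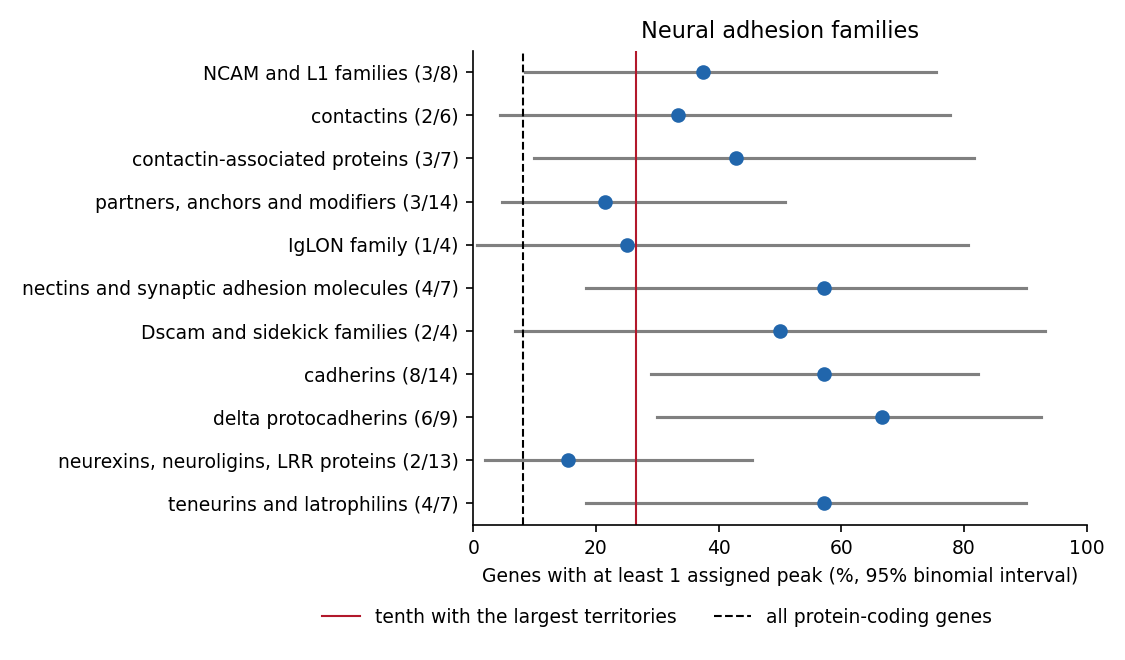
Share of genes with at least 1 assigned peak in each of the 11 adhesion families, with the 95% exact binomial interval as a bar and the number of genes beside each name. The dashed line is the share over all protein-coding genes (8.18%) and the solid line that of the tenth with the largest territories (26.6%). Family shares lie between 15.4% and 66.7%, and nothing is read from them, since the families were listed with earlier results known.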

How the data were processed

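Flag ChIP-seq was carried out on 2 libraries with Dox and 2 without. BWA 0.5.8a and the build mm9 (NCBIM37) are named in the submitters' processing notes. The labels and header give no peak caller, threshold or pooling. One list was deposited by the authors, with a ChIP score and a background score per peak, on no stated scale per the file headers, and a whole-number count of tags per region. Without 1 mitochondrial peak, the list holds 2454 peaks in 2301 regions. Each has a 500 bp window per the file headers.

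Each maximum was assigned to the nearest start among transcripts of protein-coding genes of GENCODE M1 (Ensembl 65), 22333 of which have territory. Coordinates are as deposited. Of 93 listed genes, 82 matched by symbol and 11 by an older symbol, partly through a RefSeq table of GRCm38.p6. For 15 motifs, matches were counted in 200 bp centred on each maximum and in flanks 1 kb to either side. Assignment, territories and motif search were tested on simulated data. Intervals are 95% exact intervals (Clopper-Pearson or Poisson, scipy 1.17.1), for counting error only, and no difference was tested. The 8 genes, the families and the motifs were chosen with earlier results of these data known. Named genes are the 8, the hosts and neighbours of their peaks, the peaks ranked beside the strongest, and up to 3 genes per family by score, others being marked. A result that this rule selects is not reported here.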

Additional observations from a re-analysis of the deposited data

How the results depend on the processing

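The number of peaks and of genes with one, 3 in both cases, depended on how far a start may lie and on which genes compete. Both fell to 1 (Nfasc) with all annotated genes in place of protein-coding ones, where 5.21% of genes had a peak, within 100 kb of a start (6.92%), and by the gene body that holds the maximum (3.91%). Both were 0 within 10 kb (3.09%). Where the Nfasc peak alone was left, the median score was 169.96 in place of 145.87. Peaks per Mb were 0.277 in the 50% and in the 25% of peaks with the highest scores, which drop the Alcam peak. The genome rate for these smaller sets of peaks was not computed. The rate of 0.959 is over all nuclear peaks and cannot be set beside 0.277. With ATTA in place of TAATTA, 3 peaks had a match. Listed adhesion genes with a peak were 38 of 93, where 8.18% of protein-coding genes had one. They became 19 with all annotated genes (5.21% of all genes), 22 within 100 kb (6.92%), 5 within 10 kb (3.09%) and 21 by gene body (3.91%). In the 50% and 25% of peaks with the highest scores they were 24 and 12, where the share over all genes was not computed. One peak per region, background scores below 10% of ChIP scores, and protein-coding transcripts only, the last chosen after seeing the data, left 3 genes with a peak.

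No paired analysis was possible because the list gives no value per library or set. No library was left out in turn, as the 3 peaks have no value per library. The depth and the caller's threshold are unknown, and a gene without a peak is one without a listed peak, not one shown to be unbound.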
